A study of Mus musculus with 4 samples.

Results

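The receptor gene Igf1r and 7 related genes of insulin-like growth factor signalling were examined in granulocytes that lack the microRNA miR-223. They are the ligand Igf1, the receptors Igf2r and Insr, the receptor substrates Irs1 and Irs2, and the binding proteins Igfbp4 and Igfbp7. Members were chosen by name: each probe of the array whose gene name was one of the 8 was taken, which gave 16 probes of 7 genes among 41174 probes of 28515 named genes. No probe carried the name Irs2. Igf1r is a miR-223 target in the literature, and the other genes were taken for their place in the pathway. The choice was made with earlier results of these data known. Of the 16 probes, 13 probes of 6 genes were tested; the remaining 3, both probes of Irs1 and 1 of Igf1, reached a signal well above background on 0 arrays.

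The study compared wild-type and miR-223 knockout mice, both male and of strain C57BL/6. In both groups marrow was grown for 4 days in 40 ng/ml GM-CSF, a cytokine for granulocytes and macrophages, and the expanding immature granulocytes were then sorted. Each group had 2 arrays, 1 sample each. Nothing in the labels ties the replicates to different animals, so p-values measure only the spread between these samples, which may be technical. The labels used here give no age, no knockout allele and no sorting gate. In sorted cells measured in bulk, fewer cells of a type and less RNA per cell cannot be told apart.

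Insulin-like growth factor 1 binds the tyrosine kinase receptor encoded by Igf1r. The active receptor, like the insulin receptor encoded by Insr, phosphorylates the substrates Irs1 and Irs2, which recruit PI3-kinase and so activate Akt and mTOR, while the Ras pathway is engaged through adaptors. Igf2r has no kinase activity: it takes up and degrades insulin-like growth factor 2 and carries lysosomal enzymes. Binding proteins such as Igfbp4 hold the ligands in the fluid around cells. In tissues, macrophages are a known source of Igf1. MicroRNAs pair with messenger RNAs mainly through their seed, bases 2 to 8, and lower their level or translation.

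The mature strands of the deleted microRNA are shown because the seed is what a target transcript has to match. Sequences are those of RefSeq (build GRCm38.p6), written 5′ to 3′ with the seed in capitals, and lie on the plus strand of chromosome X, at 96242884 to 96242905 for the 3p strand and 96242842 to 96242864 for the 5p strand.
mmu-miR-223-3p: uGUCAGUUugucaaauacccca
mmu-miR-223-5p: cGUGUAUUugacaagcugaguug
The DNA complement of the 3p seed, AACTGAC, was searched in the 60-base probes in the sense of the transcript. It occurred in 0 of the 16 probes, against 0.372% of all 41174 probes, and that of the 5p seed, AATACAC, in 0 of 16 against 0.35%. A probe covers only a short window of its transcript, so this says nothing of sites elsewhere; full transcripts were not searched here.

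The probes of the ligand, a binding protein and the insulin receptor that read coding sequence show what the array measured. They are given 5′ to 3′ as in the array files, all in lower case since no part is singled out.
Igf1 coding probe: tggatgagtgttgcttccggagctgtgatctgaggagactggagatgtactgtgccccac
Igfbp4 coding probe: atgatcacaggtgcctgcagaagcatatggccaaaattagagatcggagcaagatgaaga
Insr coding probe: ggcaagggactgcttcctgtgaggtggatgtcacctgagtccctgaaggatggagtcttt
In build mm9, the build of the array files, the Igf1 probe lies on chromosome 10 (87376418 to 87376477, plus strand), the Igfbp4 probe on chromosome 11 (98909591 to 98909650, plus strand) and the Insr probe on chromosome 8 (3159473 to 3159532, minus strand).

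Between 57.6% and 63.5% of probes per array were well above background, and 0 spots were saturated. Across the 25057 tested probes, which are no independent replicates, Pearson's r was 0.989 for the pair of wild-type arrays, 0.994 for the pair of knockout arrays and 0.985 to 0.991 across genotypes. The knockout itself could not be checked, because 0 probes were named for Mir223. Granulocyte genes were bright on every array, with S100a9 and S100a8, which encode the calprotectin subunits, and Ltf, the lactoferrin gene, leading the marker list. Their log2 differences were 0.14 ± 0.15, 0.26 ± 0.17 and 0.15 ± 0.18. Of 18 granulocyte markers measured, 14 were higher in knockout, with a median of 0.20. With quantile normalization this was 11 of 18 and 0.07, and the median was 0.12 with spike-in scaling. Ly6g and Cebpe had no named probe.

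Igf1r was higher on both knockout arrays at each of its 4 probes, by 1.65-fold to 1.76-fold. Levels are given as log2 intensity relative to the 75th percentile of the array, so that 0 is that percentile, and differences are knockout minus wild type on the same scale. Its brightest probe, numbered 1 here, read 2.04 and 1.84 in wild type, and 2.72 and 2.79 in knockout. The gap between the genotypes was wider than the gaps of 0.20 and 0.07 within them. The log2 difference was 0.82 ± 0.14 (moderated standard error, SE, n = 2 arrays per group; limma adjusted p = 0.252), and 2.36% of tested probes had a difference at least as high. That difference did not pass the adjusted threshold of 0.05.

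The other 3 probes of Igf1r, dimmer and read from the same RNA, were also higher on both knockout arrays. Probe 2 read 0.63 and 0.50 in wild type and 1.23 and 1.45 in knockout, a difference of 0.77 ± 0.15 (limma adjusted p = 0.262). Probe 3 read -0.17 and -0.07 in wild type against 0.37 and 0.91, a difference of 0.76 ± 0.22 (limma adjusted p = 0.323). Wild-type and knockout values stood apart at both, although the knockout arrays differed from each other by 0.54 at probe 3. The difference at probe 3 was 0.49 without knockout array 2.

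Probe 4 comes from a cDNA clone rather than the RefSeq transcript. It read -0.39 and -1.07 in wild type and -0.22 and 0.20 in knockout, a difference of 0.72 ± 0.29 (limma adjusted p = 0.401). Here the groups stood apart by only 0.17, and the wild-type arrays differed by 0.68. It was 0.38 without wild-type array 2 and 1.06 without wild-type array 1. In build mm9 the first 3 probes lie within 5502 bases of chromosome 7, at 75376998 to 75377057 (probe 1), 75371556 to 75371615 (probe 2) and 75372500 to 75372559 (probe 3). They start at positions 10422, 4980 and 5924 of the RefSeq transcript, so that they read exons. The clone probe lies at 75332515 to 75332574, 38981 bases before the nearest of them; whether that stretch is exonic was not analysed here. Averaged over the 4 probes, the log2 difference was 0.77 ± 0.18 (limma adjusted p = 0.27).

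**Figure D1:**
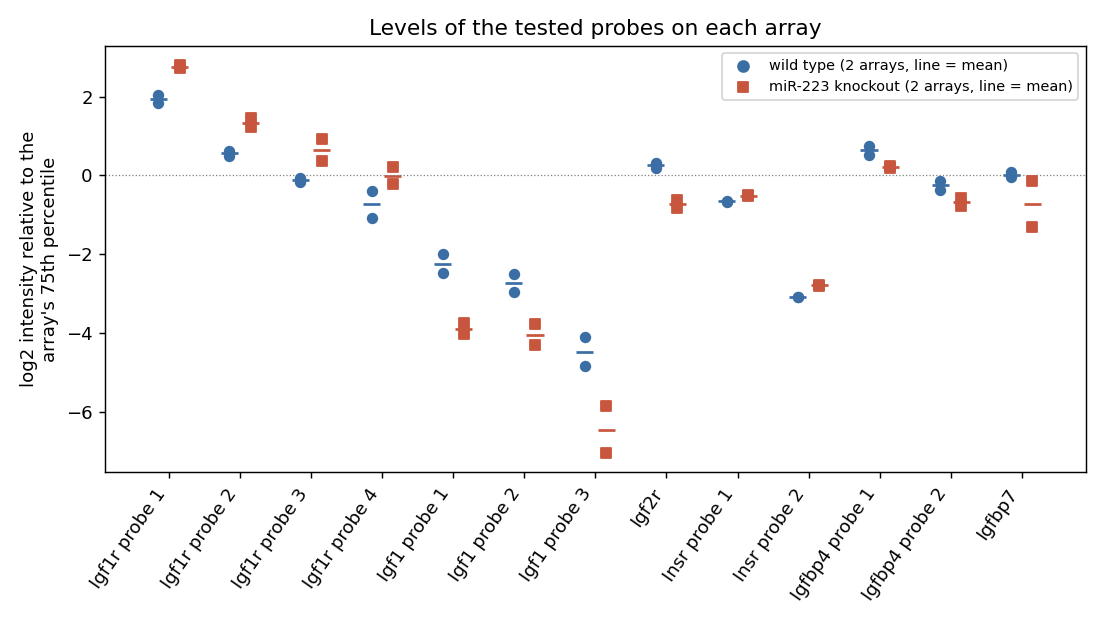
Log2 intensity relative to the 75th percentile of each array (vertical axis) for the 13 tested probes (horizontal axis, numbered within a gene by brightness), with circles for the 2 wild-type arrays, squares for the 2 knockout arrays and lines for group means. The squares of Igf1r and Insr lie above the circles, and those of Igf1, Igf2r, Igfbp4 and Igfbp7 below; levels of different probes are not comparable.

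Insr, the closest relative of Igf1r and the receptor for insulin, differed far less between the genotypes. Its brighter probe, on the minus strand of chromosome 8 (3151667 to 3151726), read -0.64 and -0.67 in wild type and -0.53 and -0.51 in knockout, a difference of 0.14 ± 0.12 (1.10-fold; limma adjusted p = 0.673). The coding probe read -3.08 and -3.09 against -2.79 and -2.78, a difference of 0.30 ± 0.12 (limma adjusted p = 0.409), which was 0.09 with normexp background correction, a model-based correction that adds an offset of 50 to the signal. Arrays of a genotype lay within 0.03 of each other at both probes, so that the groups did not overlap in spite of the small differences. Since array scaling cancels when both receptors are read on the same array, the difference of Igf1r was also set against that of Insr. At the brightest probe of each it was 0.68 larger, with 0.57 to 0.78 over the 4 pairings of a knockout with a wild-type array. The coding probe of Insr, with its larger difference, was left out of this comparison. No p-value under 0.333 can come from a two-sided exact permutation test of 2 against 2 arrays, so this was not tested further.

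Igf2r, the clearance receptor, was 1.98-fold lower in knockout. Its single probe read 0.31 and 0.20 in wild type, and -0.84 and -0.63 in knockout, so that both knockout values lay below both wild-type values by at least 0.83. The log2 difference was -0.99 ± 0.14 (limma adjusted p = 0.245), and 1.96% of tested probes had a difference at least as low. This probe starts at position 8733 of the RefSeq transcript; the array files place it on chromosome 17 by an interval of fewer bases than the probe has. Within arrays, Igf1r at its brightest probe and Igf2r moved apart by 1.80 (1.69 to 1.92 over the 4 pairings).

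With the processing used here, the ligand gene Igf1 had the largest differences of the 6 genes. It was lower on both knockout arrays at each tested probe. The coding probe, which reads the mature growth factor, was at -2.0 and -2.48 in wild type and -3.75 and -4.02 in knockout. The knockout arrays lay at least 1.28 below the wild-type arrays, a gap wider than those within the groups (0.48 and 0.27). The log2 difference was -1.65 ± 0.22 (3.14-fold; limma adjusted p = 0.245), with 0.475% of tested probes at least as low. With normexp it was -0.88, beside -0.86 for Igf2r and 0.83 for Igf1r, so the lead of Igf1 depended on the background correction.

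A second Igf1 probe was printed as 10 spots on every array and so shows the error within an array. Its means were -2.51 and -2.97 in wild type and -3.77 and -4.31 in knockout, with SDs over the 10 spots of 0.09, 0.16, 0.13 and 0.16. No knockout spot was above -3.60 and no wild-type spot below -3.31. The means of arrays of the same genotype differed by 0.46 and 0.54, more than the SDs over spots. Single spots of wild-type array 2 ran from -3.31 to -2.75. The number of arrays and not the spots thus limited the precision of the difference. The log2 difference was -1.30 ± 0.26 (limma adjusted p = 0.265), and -0.65 with normexp. It lies at 87393516 to 87393575 of chromosome 10.

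The remaining Igf1 probes were dim. One that reads a cDNA clone (87325382 to 87325441) was at -4.85 and -4.09 in wild type, while neither knockout array was well above background. It was tested only because it passed the filter through the wild-type arrays, where it was high, so no fold change is given. Its fitted difference of -1.98 was -0.42 with normexp. The last probe (87396567 to 87396626) had no array well above background, at intensities of 8.95 and 3.44 in wild type and 2.01 and 2.12 in knockout, and has no fold change.

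Both binding protein genes were lower on the knockout arrays. The brighter probe of Igfbp4 (chromosome 11, 98913334 to 98913393) read 0.75 and 0.52 in wild type and 0.23 and 0.18 in knockout, a difference of -0.43 ± 0.15 (1.35-fold; limma adjusted p = 0.358). Its coding probe read -0.14 and -0.37 against -0.57 and -0.79, also a difference of -0.43 (SE 0.16; limma adjusted p = 0.385). The groups stood apart at both probes by 0.28 and 0.20, about the size of the gap between the wild-type arrays (0.23 and 0.24).

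Igfbp7, a secreted binding protein with low affinity for these ligands, differed mainly on knockout array 2. It read -0.05 and 0.08 in wild type and -0.14 and -1.30 in knockout (chromosome 5, 77778355 to 77778414, minus strand), so that knockout array 1 lay only 0.09 below the nearest wild-type array. The difference was -0.74 ± 0.40 (1.67-fold; limma adjusted p = 0.504). It was -0.16 without knockout array 2 and -1.32 without knockout array 1, so its size rested on that array.

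Irs1, which couples both receptors to PI3-kinase, gave no signal well above background at either of its probes. Their intensities ran from 1.09 to 2.49, and no fold change is given. Both probes lie on the minus strand of chromosome 1 (82233564 to 82233623 and 82229692 to 82229751).

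Of the 13 tested probes, 0 passed an adjusted p of 0.05 (limma), against 0% of 25057 tested probes called as higher and 0.012% (3 probes) as lower. Unadjusted p-values under 0.05 (limma) were found at 8 of the 13, against 13% of all tested probes. Wild-type and knockout arrays did not overlap at any of the 13. Knockout was higher at 6, all of them Igf1r and Insr, and lower at 7, while 27.6% of all tested probes stood apart as higher and 19.4% as lower. These counts include the cDNA clone probe of Igf1, which passed the filter only through wild type, where it was high. Over the 12 probes well above background on all arrays, 7 had an unadjusted p under 0.05 (limma), 6 stood apart as higher and 6 as lower, beside 11.8%, 26.5% and 20.2% of 23008 such probes. By gene this was 2 higher and 4 lower of 6, beside 28% and 20.1% of 16783 genes read at their brightest probe. Probes of a gene share their transcript and are not independent, and no probe disagreed in sign with another of its gene. Since the members were chosen with earlier results of these data known, none of these counts tests them as a set.

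**Figure D2:**
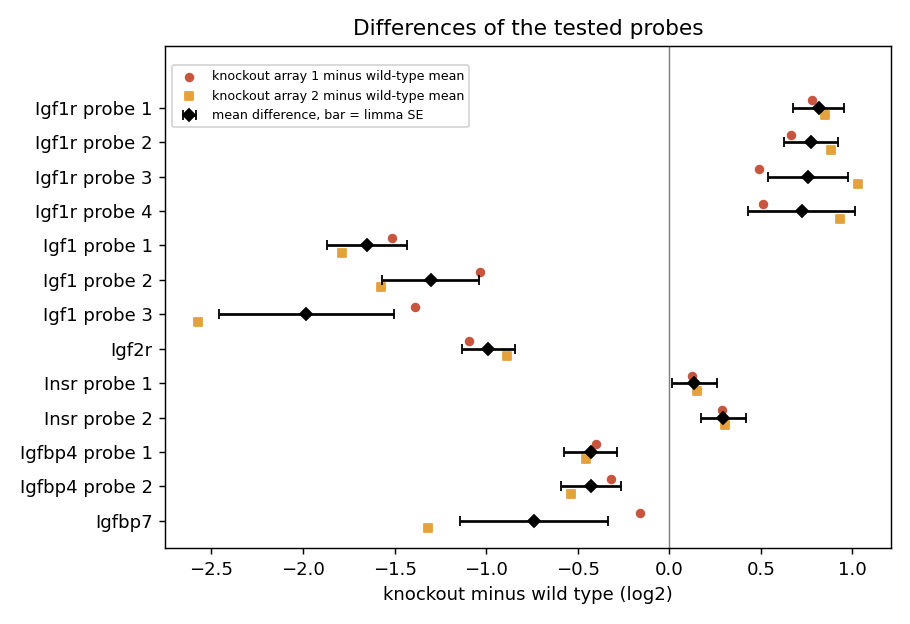
Knockout minus wild type in log2 units (horizontal axis) for the 13 tested probes (vertical axis); diamonds are mean differences with bars of 1 limma SE, circles and squares are knockout arrays 1 and 2 minus the wild-type mean. The 4 Igf1r probes lie between 0.72 and 0.82 and the Igf1 probes between -1.98 (probe 3, not above background in knockout) and -1.30, while the arrays of Igfbp7 lie at -0.16 and -1.32.

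Among the other genes of the pathway, sorted by role, 0 of 78 tested passed an adjusted p of 0.05 (limma). Of these, 8 were higher and 2 lower at an unadjusted p under 0.05. This compares with 0.0119% of 16783 genes called as lower and 0% as higher, and with 8.07% and 5.65% at an unadjusted p under 0.05. Of the 78 genes, 49 were higher in knockout (62.8%) with a median log2 difference of 0.09, against 54.8% and 0.03 over all genes tested. Each gene was read at its brightest probe, and the lists were chosen with earlier results of these data known. With spike-in scaling the median of the 78 was 0.01, and that of all tested probes went from 0.03 to -0.05. Of the 78, 4 were not well above background on wild-type array 2 (Igfbp2, Htra1, Gab2 and Foxo4), and 7 of the 8 genes that were higher at an unadjusted p under 0.05 (limma) were among the other 74. The 8 include Foxo3, which was at 0.82 at its brightest probe but at -0.76 at its other probe.

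Most other ligands and binding proteins were not measurable. Of 13 genes that also included proteases, 5 were tested and 7 had no array well above background, among them Igf2, Ins2, Igfbp1, Igfbp3 and Igfbp5. Igfbp6, a binding protein that prefers insulin-like growth factor 2, read -3.27 and -2.84 in wild type and -1.65 and -1.32 in knockout. The difference of 1.57 ± 0.21 (2.97-fold; limma adjusted p = 0.245) was opposite in direction to those of Igfbp4 and Igfbp7, and the groups stood far apart. The insulin gene Ins1 was dim, with a difference of 0.32 ± 0.13, and its near copy Ins2 was not measurable. Htra1, a protease that cleaves binding proteins, was near background and not well above it on wild-type array 2, with levels of -5.28 and -5.32 in wild type and -5.40 and -6.09 in knockout. Ide, the insulin-degrading enzyme, was at -0.13 ± 0.19. The list's median was 0.22 with 3 of 5 higher, and was 0.13 with spike-in scaling and -0.02 with normexp.

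Adaptors and Ras genes had a median of 0.15, with 11 of 16 higher (0.07 and 9 of 16 with spike-in scaling). Gab2, a docking protein of growth factor and cytokine receptors, read -5.28 and -6.18 in wild type and -4.08 and -4.77 in knockout. It was named for the smallest p of the list, but wild-type array 2 was not well above background and it passed the filter only through knockout, where it was high, so no fold change is given. The adaptor gene Sh2b2 was at 0.29 ± 0.12. Crk, another adaptor, was at 0.24 ± 0.14 (another probe -0.12), and Nras, a Ras GTPase, at 0.21 ± 0.14 (other probes -0.07 and 0.29).

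Genes of PI3-kinase and Akt divided evenly, with 8 of 16 higher and a median of 0.02 (-0.06 with spike-in scaling and -0.02 with normexp). The catalytic subunit gene Pik3ca read 0.63 and 0.46 in wild type and 1.10 and 1.12 in knockout, a difference of 0.56 ± 0.13 (limma adjusted p = 0.283), although a second probe gave 0.12. Gsk3a, a kinase that Akt inhibits, was at 0.31 ± 0.12. The regulatory subunit gene Pik3r3 was at -0.38 ± 0.15 and Tbc1d4, an Akt substrate in glucose transport, at -0.36 ± 0.19 (other probes up to 0.04).

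In the mTOR list 11 of 13 were higher, with a median of 0.11 (9 of 13 and 0.03 with spike-in scaling). The S6 kinase gene Rps6kb2 was at 0.44 ± 0.16, with 0.42 to 0.49 over its 3 probes. Its relative Rps6kb1 was at 0.25 ± 0.19 (other probes up to 1.21). Tsc2, which restrains mTOR, was at 0.19 ± 0.14, and Rheb, which activates it, at -0.21 ± 0.13.

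Negative regulators had a median of 0.04, with 9 of 17 higher (-0.04 with spike-in scaling and -0.01 with normexp). Ptpn1, a phosphatase of the insulin receptor, was at 0.38 ± 0.12. The ubiquitin ligase gene Cblb was dim, and 1 of its 2 probes was tested. It read -4.41 and -4.57 in wild type against -5.47 and -5.10 in knockout (-0.80 ± 0.18, limma adjusted p = 0.274). The feedback inhibitor gene Socs3 was at -0.47 ± 0.13. The groups did not overlap for any of these genes, which were named for the smallest p of the list. Over the list, 4 of 17 genes stood apart as higher and 3 as lower, beside 28% and 20.1% of all tested genes.

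FoxO factors, which Akt keeps out of the nucleus, and their targets had a median of 0.11, with 7 of 11 higher (0.03 with spike-in scaling and 0.05 with normexp). Foxo3 was at 0.82 ± 0.20 at its brightest probe but at -0.76 at the other, so that no direction can be given for the gene. It is counted among the 7 by its brightest probe. Sesn3, a stress-induced restraint on mTOR and a FoxO target, was at 0.54 ± 0.16 (a second probe 0.52), and its relative Sesn2 at 0.28 ± 0.18. Foxo1 itself was at -0.22 ± 0.14 (another probe 0.07).

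**Figure D3:**
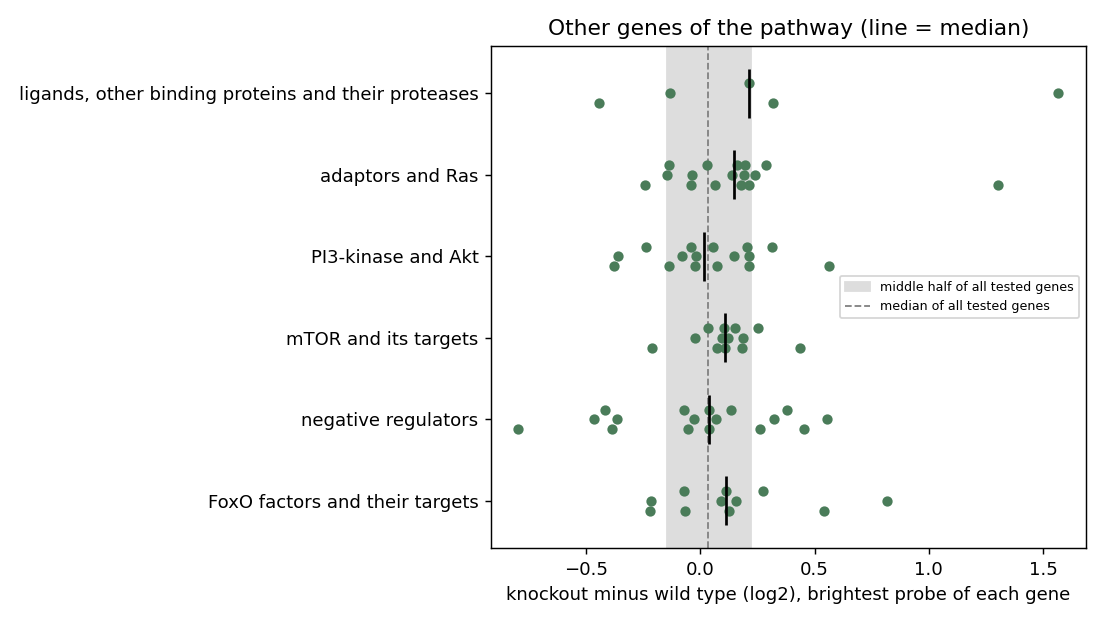
Knockout minus wild type in log2 units (horizontal axis) for 78 tested pathway genes at their brightest probe (points) in 6 lists (vertical axis), with a black line at the median of each list, and the median and interquartile range (-0.14 to 0.22) of all 16783 tested genes as a dashed line and a grey band. The list medians, 0.02 to 0.22, lie within the grey band, and the point farthest right is Igfbp6 at 1.57.

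Genes of other cell types moved on the same arrays, so their values are given beside the results above. Of 24 measured macrophage and monocyte markers, 18 were lower in knockout, with a median of -0.70 and medians of -0.53 and -0.74 on the knockout arrays. Their summed level was 9.25 and 9.38 in wild type and 9.61 and 9.69 in knockout, higher in knockout because it was led by Ly6c2 (0.40 ± 0.13) and Ly6c1 (0.47 ± 0.13), surface proteins also found on immature granulocytes. Mpeg1, a pore-forming protein of macrophages, was at -0.64 ± 0.18 (a second probe -0.29). Vsig4 and Timd4, markers of resident macrophages, were not well above background on any array. Igf1 and Igf2r moved in the direction of that list's median, and its part in their differences was not tested.

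Mast cell and basophil markers were lower for 8 of 9 measured, with a median of -1.35 and medians of -0.51 and -2.16 on knockout arrays 1 and 2. Their summed level was 6.01 and 6.17 in wild type and 5.53 and 4.61 in knockout. The basophil and mast cell genes Prss34, Mcpt8 and Hdc were at -1.57 ± 0.65, -1.35 ± 0.57 and -0.45 ± 0.20, while Mcpt2, Mcpt4, Tpsb2 and Cma1 were not well above background. Igfbp7 had the same order of the knockout arrays, lowest on array 2. Igf1 (-1.51 and -1.78), Igfbp4 (-0.40 and -0.46) and the macrophage list shared that order, with smaller gaps, while Igf2r was lowest on array 1. The part of these cells in the value of Igfbp7 was not tested.

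Dendritic cell markers were lower for 11 of 15, with a median of -0.34 (-0.21 with normexp) and medians of -0.04 and -0.58 on the knockout arrays. Their summed level was 7.48 and 7.61 in wild type and 7.56 and 7.0 in knockout. The brightest were Cd74 (-0.34 ± 0.23) and H2-Ab1 (-0.07 ± 0.26), of antigen presentation by MHC class II, and the integrin gene Itgax (-0.55 ± 0.19). The order of the knockout arrays was again that of Igfbp7, Igf1 and Igfbp4, and the part of these cells was not tested either. The 11 lower genes include Siglech and Cd209a, which were not well above background on knockout array 2. Both passed the filter only through wild type, where they were high.

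For 9 stromal and endothelial markers the median was 0.27, with 7 higher (0.09 with normexp and 0.17 with quantile normalization). For 9 lymphoid markers it was 0.04, with 6 higher (-0.04 with spike-in scaling and -0.02 with normexp). Cd4 and Cd79a, among these 9, were not well above background on wild-type array 2 and passed the filter only through knockout. The summed level of the stromal list was 7.10 and 7.27 in wild type and 7.73 and 7.88 in knockout, led by the smooth muscle actin gene Acta2 (0.27 ± 0.19, other probes up to 1.68) and by Thy1 (1.03 ± 0.13, a second probe 1.48), followed by Pecam1 (0.17 ± 0.21). Col3a1, Pdgfra, Lepr, Cxcl12 and Cdh5 were not well above background on any array. This list leaned the way of Igfbp6 and opposite to Igfbp4 and Igfbp7; its part in those values was not tested. The lymphoid sums were 4.52 and 4.44 in wild type and 4.74 and 4.38 in knockout, with Nkg7 at 0.04 ± 0.17, Cd79b at 0.56 ± 0.21 and Vpreb1 at -0.22 ± 0.15.

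**Figure D4:**
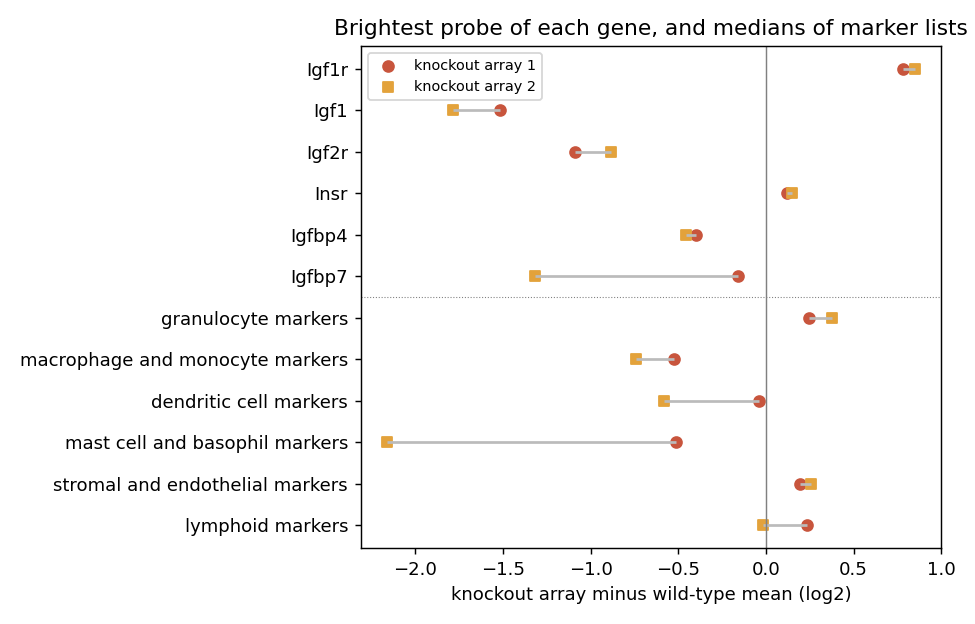
Each knockout array minus the wild-type mean in log2 units (horizontal axis; circles array 1, squares array 2) for the brightest probe of the 6 tested genes and, under the dotted line, for the medians of the marker lists. Igf1r, Igf1, Igf2r, Insr and Igfbp4 have both arrays on one side of 0 and close together, while Igfbp7 and the mast cell and basophil list spread from -0.16 to -1.32 and from -0.51 to -2.16.

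The genes whose pattern over the 4 arrays was most like that of Igf1r were found by the root mean square difference of values centred on each probe's own mean, over 15390 genes well above background on all arrays. The nearest was the olfactory receptor gene Olfr398, at a distance of 0.02 and with a difference of 0.84. It was followed by Fah, the last enzyme of tyrosine breakdown (0.02; difference 0.78), Rab10, a GTPase of vesicle traffic (0.03; 0.78), Tesmin, a metal-binding protein of germ cells (0.03; 0.79), and Bnip3, a mitochondrial protein induced by hypoxia (0.04; 0.75). With 4 arrays many genes come close by this measure. Igf1r probe 2, at 0.06, had 15 genes nearer to probe 1 than itself, and probes 3 and 4 had 458 and 610.

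**Figure D5:**
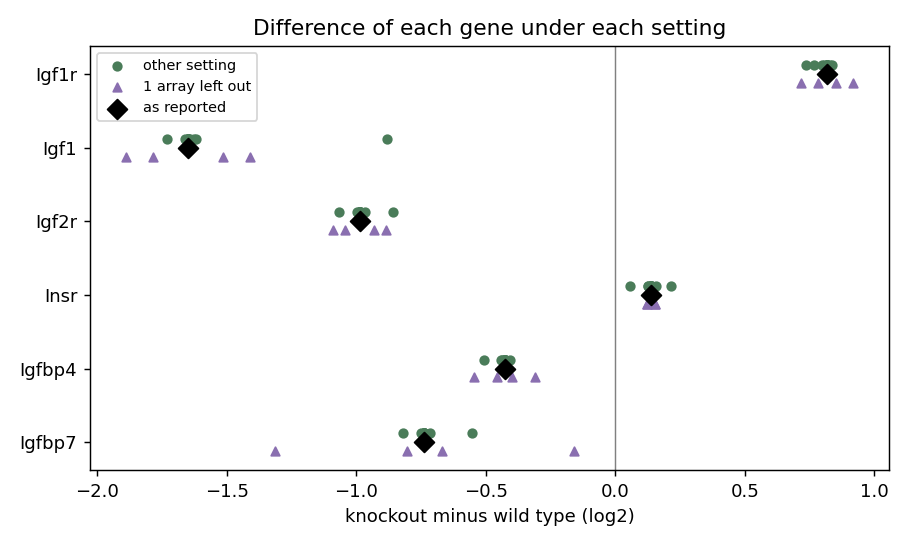
Knockout minus wild type in log2 units (horizontal axis) at the brightest probe of the 6 tested genes (vertical axis), as reported (diamonds), under other settings (circles) and with 1 array left out (triangles). No value crosses 0; Igf1r stays between 0.72 and 0.92, Igf1 reaches -0.88 with normexp background correction, and Igfbp7 runs from -1.32 to -0.16.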

How the data were processed

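Cy3-labelled RNA of the 4 samples was read on Agilent mouse arrays of design 014868, 1 array each. Spot intensity came from Agilent Feature Extraction 10.5.1.1 (build mm9), per the file headers, which fitted and subtracted a spatial background surface, detrended the signal and gave dim spots surrogate values. Arrays were not normalized against each other. The log2 values that the authors deposited for these arrays equal log2 intensity plus a constant per array within 0.01 for 99.8% of values and were used as an alternative; their making is not given in the sources used here.

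From the intensity, control spots and 368 outlier-flagged spots were removed, log2 values of a probe's spots averaged, and the 75th percentile of the array subtracted. The 25057 probes well above background on each array of a group were tested with limma 3.58.1 in R 4.3.3 (lmFit, eBayes, two-sided test), and p-values were adjusted by Benjamini-Hochberg across all probes tested. The script was tested on simulated data. Pathway and marker genes were named through RefSeq accessions (26888 probes matched) or else by the array's name. Named genes are every member, up to 4 per pathway list by smallest p, up to 3 per marker list by brightness, and the 5 nearest to Igf1r. A gene that the rule names in the list of negative regulators is not reported here. The members and lists were chosen with earlier results of these data known.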

Additional observations from a re-analysis of the deposited data

How the results depend on the processing

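All 6 genes kept their direction at their brightest probe under all 16 other settings, and none of them passed an adjusted p of 0.05 there (limma). Adjusted p ran from 0.0949 to 0.728 for Igf1r, 0.0714 to 0.696 for Igf1, 0.0893 to 0.696 for Igf2r, 0.491 to 0.988 for Insr, 0.266 to 0.923 for Igfbp4 and 0.406 to 0.980 for Igfbp7. Leaving out an array gave 0.72 to 0.92 for Igf1r and -1.89 to -1.41 for Igf1. Spike-in scaling lowered the Insr difference to 0.06 and put 42.9% of all tested probes higher in knockout, against 55.2%.

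The number of probes called over the whole array was less stable. The 3 calls (all lower) became 0 with the authors' log2 values, without the filter on dim probes, with probes above background on all arrays, with 1 probe or the mean of probes per gene, and with an intensity trend. They became 6 with normexp (3 higher and 3 lower) and 4 with quantile normalization (2 and 2). Leaving out an array gave 0 to 543 calls: 543 without wild type replicate 1, 89 without wild type replicate 2 and 0 without either knockout array, where the lone array is assumed to vary like the others; the cause was not tested. The pathway count of 0 became 1 without wild type replicate 2 (Pappa, well above background only on the wild-type array that remained), so leaving out an array gave 0 to 1.

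The labels give both groups the replicate numbers 1 and 2, but nothing says they mark a shared source. Deviations of same-numbered arrays correlated at 0.146 over the tested probes. With the replicate block 0 probes were called, and Igf1r was at 0.82 ± 0.15 (limma adjusted p = 0.242). Only 2 arrays per group limit the precision: the median SE over tested probes was 0.159.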
